A study of Homo sapiens with 480 samples.

Results

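DHRS2 was read in 18 single J-Lat A2 cells that had been exposed to the histone deacetylase inhibitor SAHA, 13.3% of those kept, and was at 0 in the rest. These DHRS2-positive wells are compared here with the DHRS2-negative wells beside them. Of the 480 wells of the series 410 were kept, and among them 67 J-Lat A2 wells with SAHA in the first batch (2 positive, 65 negative) and 68 in the second (16 positive, 52 negative). Wells below 0.1 of their plate's median total, or with fewer than 500 genes, were dropped, which took out 66 J-Lat A2 wells with SAHA. A well was positive when its DHRS2 count, rounded to a whole number, was 1 or more, and negative when it was 0. DHRS2 itself chose the groups, so its values are given as a description and with no test.

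The study measured single-cell transcriptomes in a cell culture model of latent HIV. Jurkat is a line of human leukaemic T cells. J-Lat A2, a clone of Jurkat, has an integrated HIV-derived construct, which the table holds as the feature HIVmini. The J-Lat A2 cells compared were treated for 24 h with 1 uM SAHA (vorinostat), and both groups come from the same plates. The controls used beside them were J-Lat A2 with the vehicle, 0.1% v/v DMSO (94 kept wells), J-Lat A2 with 1 ug/mL of the phorbol ester PMA (79 wells), and Jurkat with DMSO (30), SAHA (36) or PMA (36). Because J-Lat A2 is a single clone, the results describe that clone and not T cells at large. Plates P2449 and P2458 were taken as the first batch and P2769, P2770 and P2771 as the second, from the plate names and the stated number of plates per batch. The labels do not name separate cultures, so p-values measure the spread between these plates, which may be technical.

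DHRS2, also known as HEP27, is a short-chain dehydrogenase/reductase, an enzyme family that uses NAD(P)(H) to reduce or oxidise carbonyl and hydroxyl groups on small molecules. It was first described in hepatoma cells whose growth had been arrested by butyrate, itself an inhibitor of histone deacetylases. Histone deacetylases remove acetyl groups from histone tails and help keep genes and latent proviruses silent, and SAHA blocks the zinc-dependent members of that enzyme family. DHRS4 and DHRS4L2, the closest relatives of DHRS2 in the table, lie downstream of it on the same chromosome.

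The stretches before the RefSeq start sites of DHRS2 and DHRS4 are shown because the gene that was read in few wells and its relative that was read in most wells differ in them. DHRS2 lies at chr14:23630115-23645639 on the plus strand (GENCODE release 29, GRCh38). The sequences are the 250 bases before each RefSeq start (GRCh38.p14, plus strand), chr14:23629865-23630114 for DHRS2 and chr14:23953520-23953769 for DHRS4. Capitals mark TATAAA in the first and GGGCGG, read on either strand, in the second. GENCODE release 29 places the DHRS4 start earlier, at chr14:23953586, inside the stretch shown. By that annotation much of the DHRS4 stretch, with every GGGCGG marked in it, lies within the gene.
DHRS2: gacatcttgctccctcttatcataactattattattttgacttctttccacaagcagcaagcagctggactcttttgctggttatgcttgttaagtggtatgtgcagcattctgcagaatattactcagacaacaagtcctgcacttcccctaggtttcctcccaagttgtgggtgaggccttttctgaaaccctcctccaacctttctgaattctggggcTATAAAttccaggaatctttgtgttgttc
DHRS4: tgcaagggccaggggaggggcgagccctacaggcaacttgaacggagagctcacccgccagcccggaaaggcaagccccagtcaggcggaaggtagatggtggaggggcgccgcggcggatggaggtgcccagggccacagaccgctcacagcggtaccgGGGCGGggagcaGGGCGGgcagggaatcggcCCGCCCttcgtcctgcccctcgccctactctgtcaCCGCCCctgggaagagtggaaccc

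The DHRS2 stretch held 0 CpG dinucleotides and had a GC content of 43.2%, whereas the DHRS4 stretch held 19 CpG and had a GC content of 70.8%. Over 35116 RefSeq promoters of the same length the median was 11 CpG, 6.06% had as few as DHRS2 and 34.6% had at least as many as DHRS4. DHRS2 had 1 TATAAA, 29 bases before the start, and 0 GGGCGG. DHRS4 had 0 TATAAA and 4 GGGCGG. Searched on both strands, TATAAA was in 10.7% of the promoters and GGGCGG in 42.6%. A match of letters is a description of the sequence and does not show that a factor bound there.

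DHRS2 counts had a gap between 0 and the positive wells. The reads carry no molecular identifier, and whether wells at 0 held DHRS2 transcripts that were not read was not tested. The positive wells held from 45 to 5393 counts, with a median of 463, and 0 wells held between 1 and 44. Per 1000000 counts of the well (CPM), the lowest positive well had 126.96, the median was 1049 and the highest had 9059. The negative wells had a deposited value of exactly 0, so a threshold of 10 counts gave the same groups. The wells nearest the threshold were therefore a positive well with 45 counts and negative wells with 0.

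The positive wells also differed among themselves within a plate. The well with 5393 counts, on plate P2770, held 35.7% of all DHRS2 counts. On that plate the other positive wells ran from 92 to 1594 counts. On plate P2769 the 8 positive wells ran from 234 to 1252 counts, or from 336 to 2456 CPM. Plate P2771 had 1 well with 45 counts and 1 with 462, and the single positive wells of P2449 and P2458 had 218 and 373.

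Positive wells were on every plate, and most were in the second batch. These made up 1 of 29 wells on P2449 (3.45%), 1 of 38 on P2458 (2.63%), 8 of 22 on P2769 (36.4%), 6 of 24 on P2770 (25%) and 2 of 22 on P2771 (9.09%). Over the first batch the share was 2.99% (2 of 67 wells, 95% exact binomial interval 0.364 to 10.4) and over the second 23.5% (16 of 68, 14.1 to 35.4). Every plate of the second batch had a higher share than either plate of the first. These intervals treat wells as independent and cover counting error only, whereas cells of a plate may share a culture, which the labels do not say.

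**Figure D1:**
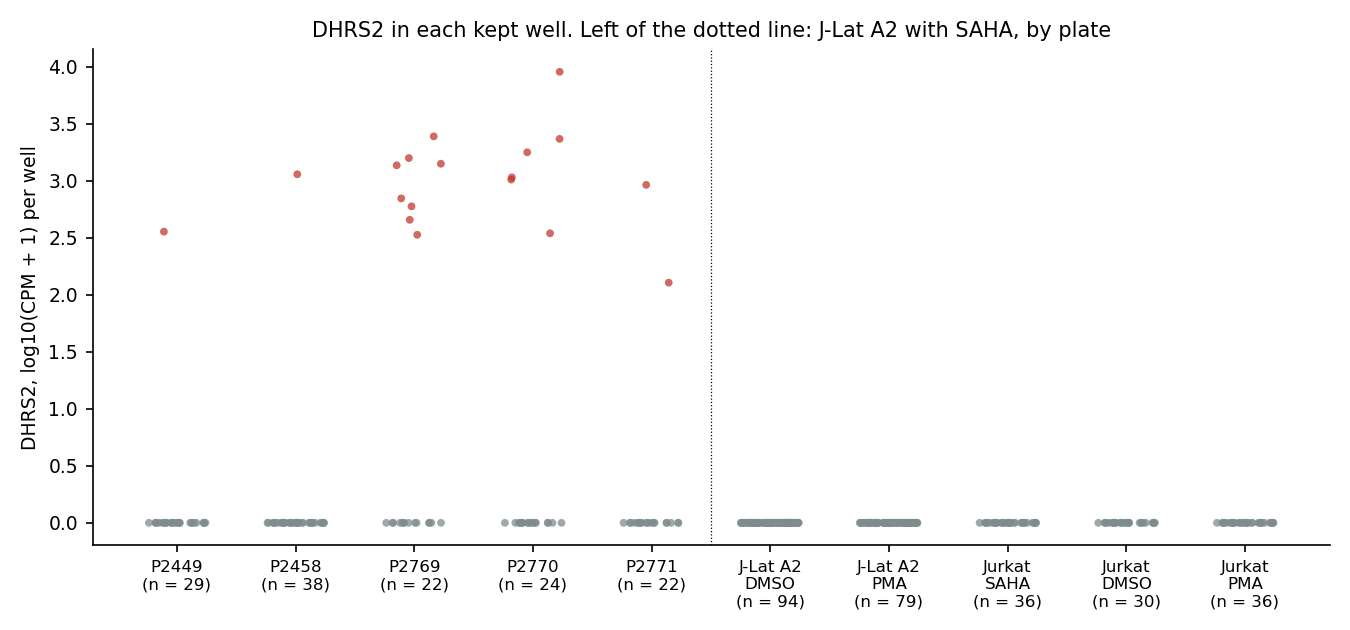
DHRS2 in each kept well, as log10(CPM + 1) on the vertical axis, with 1 point per well. J-Lat A2 wells with SAHA are split by plate to the left of the dotted line, and the other groups are to its right. The 18 positive wells (red) lie well above 0 with none near it, and 16 of them are on the 3 plates of the second batch.

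In every other group DHRS2 had no count. It was at 0 in all 275 other kept wells, which allows a share of up to 1.09%. That count includes 94 J-Lat A2 wells with DMSO, which allow up to 3.19%, and 36 Jurkat wells with SAHA on the second-batch plates, which allow up to 8.33%. Since no Jurkat well was positive, host genes could not be compared between positive and negative wells in that line. The 66 dropped J-Lat A2 wells with SAHA also had DHRS2 at 0, at a median total of 12828 counts.

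The depth of the wells was close in the middle of the range and differed at its low end. The positive wells had from 265946 to 856719 counts with a median of 512222, and the negative wells had from 19756 to 880650 with a median of 511883. Positive minus negative, the median well total differed by 27841, 79641, -24305, -52975 and -124965 counts on P2449, P2458, P2769, P2770 and P2771. The mean of these differences was -18953 ± 77998 (SD, n = 5 plates), with 2 plates higher and 3 lower (exact two-sided sign-flip permutation p = 0.6875, where 5 plates cannot give less than 0.0625).

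No positive well was shallow, whereas 31 negative wells had fewer counts than the lowest positive well, 26 of them in the first batch. Of the wells at or above that total 17.3% were positive: 2 of 41 (4.88%) from the first batch and 16 of 63 (25.4%) from the second. When each well was thinned to 100000 counts, all 18 positive wells kept DHRS2, with at least 11 counts, while 18 negative wells were too shallow to enter. Thinning removes reads and cannot show whether transcripts were missed in a negative well. Within the positive wells the rank correlation of DHRS2 CPM with the well total was 0.038 (n = 18 wells, which share plates and batches).

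The number of genes read per well had a median of 3694 in the positive and 4466 in the negative wells, but the plates did not share a direction. The differences were -822.5, 259, -185.5, 51 and 727.5 genes in plate order, with a mean of 5.9 ± 572 (SD, n = 5 plates, exact sign-flip permutation p = 1). After thinning the mean difference was -109.5 genes (exact sign-flip permutation p = 0.625, n = 5 plates). The share of counts from mitochondrially encoded genes had a median of 5.57% in positive and 4.91% in negative wells, with a mean plate difference of 0.335 percentage points (SD 0.676, n = 5 plates, exact sign-flip permutation p = 0.4375). None of these differences exceeded the spread between plates. No doublet caller was run. The highest total and the highest gene count were both in negative wells.

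Both groups carried T cell markers, and most wells had no count for the markers of other cells. All 11 T cell markers had counts in each group, and their summed level had a median of 932 CPM in positive wells (range 263 to 2757) and 923 CPM in negative wells (range 0 to 7263). CD3D, a chain of the T cell receptor complex, was read in 17 positive wells (94.4%) and 97 negative wells (82.9%), and LCK, the kinase that starts its signalling, in 15 (83.3%) and 87 (74.4%). Thinned, the shares were 94.4% against 93.9% for CD3D and 83.3% against 84.8% for LCK. TRBC2, CD28 and CD2 had a smaller share in positive than in negative wells, at 72.2% against 74.4%, 11.1% against 23.9% and 5.56% against 8.55%. Thinned, these were 61.1% against 78.8%, 11.1% against 23.2% and 5.56% against 10.1%. TRBC2 in the second batch alone, not thinned, had 68.8% against 86.5%. CD3D, CD3E, CD247, TRAC, TRBC1 and PTPRC had a larger thinned share in positive wells. Of 8 myeloid markers 1 was read in positive and 2 in negative wells, and of 6 epithelial markers 0 and 3. Of 6 B cell, 6 erythroid and 6 fibroblast markers, 1, 2 and 1 had any count in either group. The median summed level of each of these lists was 0 in both groups.

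The integrated construct was read in most wells of both groups. HIVmini had a count in 12 of 18 positive wells (66.7%, exact binomial interval 41 to 86.7) and in 86 negative wells (73.5%, 64.5 to 81.2), against 5 of 94 J-Lat A2 wells with DMSO. Positive minus negative, the share differed by -71.4, 29.7, -10.7, -27.8 and 30.0 percentage points in plate order. The mean difference was -10.0 ± 42.6 (SD, n = 5 plates, exact sign-flip permutation p = 0.6875). The direction was thus not shared by the plates, and the single positive wells of P2449 and P2458 set their plate's value to either extreme. At a threshold of 100 CPM the mean difference was -2.04 percentage points, and after thinning -6.90.

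The level of HIVmini overlapped between the groups. Summed over the wells of a plate, the positive wells had 0, 12713, 8830, 9887 and 13270 CPM in plate order, and the negative wells had 8357, 15790, 11619, 21498 and 9619. The positive sum was lower on 4 of 5 plates and higher on P2771, and the ranges overlapped. The log2 change was -1.05 ± 1.11 (SE, edgeR quasi-likelihood test, adjusted p = 0.730). Per well, the median was 9388 CPM in positive and 4302 CPM in negative wells, pooled over batches that hold unlike shares of the 2 groups. In the second batch alone it was 9388 and 7306 CPM, and in the first 9033 (2 positive wells) and 2459. Within the 18 positive wells the rank correlation of DHRS2 with HIVmini was -0.295, a description over wells that share plates.

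**Figure D2:**
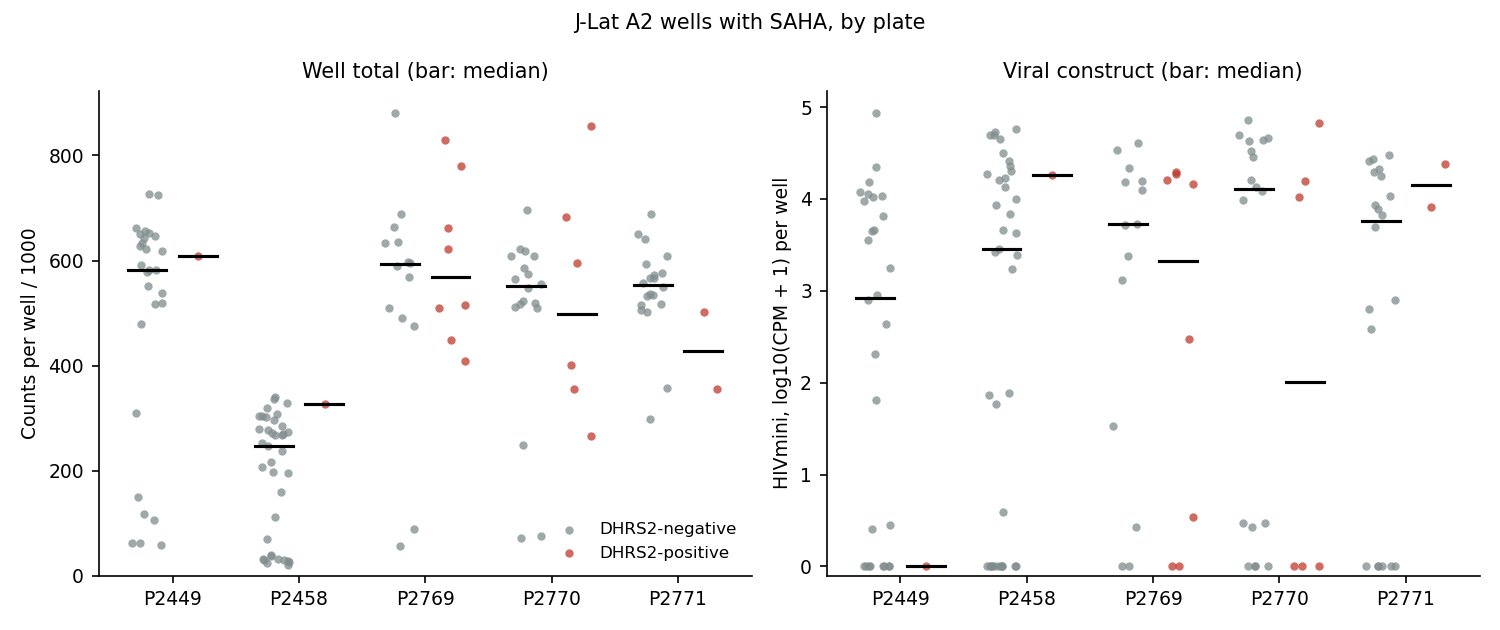
Counts per well, divided by 1000 (left), and HIVmini as log10(CPM + 1) (right) for J-Lat A2 wells with SAHA, by plate, with 1 point per well and a bar at the median. Taken over all plates, positive wells (red) lie within the span of negative wells (grey) in both panels, but on P2770 the positive well of 856719 counts lies above the negative wells of its plate, and wells with and without HIVmini occur in both groups.

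To compare host genes, counts were summed over the positive and over the negative wells of each plate, which gave 5 pairs of sums. A sum mixes the share of wells that express a gene with the level in each, and these cannot be told apart in it. No gene other than DHRS2 passed an adjusted p of 0.05: 0 of 10922 were called (0%) by edgeR's quasi-likelihood test with the plate as a block, and the lowest adjusted p was 0.625. At an unadjusted p under 0.05 there were 735 genes (6.73%), of which 4 were higher in positive wells (0.0366%) and 731 lower (6.69%). DESeq2 on the same sums called 579 genes (5.3%), 7 higher (0.0641%) and 572 lower (5.24%). Of these, 465 (80.3%) had 0 counts in both single positive wells of the first batch, against 45.8% of all genes tested.

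The sums are uneven in depth. The 2 positive sums of the first batch are 1 well each, and 65.4% and 56.7% of the tested genes were at 0 in them, against 23.1 to 36.1% in the positive sums of the second batch and 3.32 to 17.1% in the negative sums. The median log2 change of all genes was -1.55 with a median SE of 2.14. For the 2066 genes with a mean of at least 100 CPM the median change was -0.42 and the median SE 0.607. With equal weight per well the median of all genes was 0.09. That analysis averaged log2(CPM + 1) over the wells of each plate and group, and each plate weighed equally. The 1 positive well of P2449 or P2458 thus counted as much as the 8 of P2769. Directions below are to be read against the median of the same analysis. At an unadjusted p under 0.05, 731 of 735 genes were lower, which is the background for lists described below as all lower. In the second batch alone edgeR called 0 of 10099 genes (0%), with 216 at an unadjusted p under 0.05 (2.14%) and a median change of -0.41.

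Whether the difference between positive and negative wells depended on the batch was also tested, and edgeR called 0 genes (0%; lowest adjusted p 0.116, 811 genes or 7.43% at an unadjusted p under 0.05). That result rested on single wells: with P2449 left out 219 genes were called, and with P2458 left out 965.

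The genes named next, other than INSIG1, were taken by a rule from those with a mean of at least 20 CPM and the same direction on all 5 plates, by smallest unadjusted p. INSIG1 was not lower on every plate and comes in as 1 of the 2 cholesterol synthesis genes of highest level. None of these genes was called by edgeR, whereas DESeq2 called ZNF136, TIMELESS and SPG11 (adjusted p = 2.49e-06, 0.00106 and 0.000339). Of 5725 genes at that level, 21 (0.367%) were higher in the positive sum on every plate and 607 (10.6%) lower.

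Among the lower genes, FDFT1 (squalene synthase, which commits farnesyl groups to sterol synthesis) had 23.8, 414, 572, 375 and 425 CPM in the positive sums and 823.5, 879.5, 1351, 1372 and 1030 in the negative sums. The 2 sets of sums did not overlap. The rule that chose this gene favours such a separation, and its share among all genes is not given here. Its log2 change was -1.90 ± 0.52 (SE, edgeR adjusted p = 0.625) and -0.62 with equal weight per well, from 362 ± 203 CPM in positive to 1091 ± 258 in negative sums (SD, n = 5 plates). It was read in all 18 positive wells and in 85.5% of negative wells, and in J-Lat A2 wells with DMSO its level was 1959 ± 383 CPM (SD, n = 5 plates).

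INSIG1, which holds the sterol sensor SCAP in the endoplasmic reticulum, had 69.3, 317, 734, 2462 and 395 CPM in the positive sums and 1400, 1553, 2303, 1776 and 1734 in the negative sums. It was lower on 4 plates and higher on P2770, where 1 well gave much of its level (51.2% of all INSIG1 counts of positive wells came from 1 well). The log2 change was -1.95 ± 0.51 (SE, edgeR adjusted p = 0.625), and with wells thinned to 100000 counts it was -2.04 with an adjusted p of 0.0432, the only gene called there. Its level with DMSO was 596 ± 59.5 CPM (SD, n = 5 plates).

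ACTG1, cytoplasmic gamma-actin, had 3514, 2897, 5719, 5932 and 5307 CPM in the positive sums and 5183, 5405, 6387, 9979 and 8159 in the negative sums. It was lower on every plate and the ranges overlapped (log2 change -0.55 ± 0.11 SE, edgeR adjusted p = 0.625). The direction turned with equal weight per well, where the log2 change was 0.61.

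The other lower genes were read in few positive wells. ZNF136, a zinc finger gene, was read in 1 of 18 positive and 26 negative wells (22.2%), TIMELESS, a component of the replication fork, in 4 and 50 (42.7%), and SPG11, which acts in lysosome recycling, in 2 and 34 (29.1%). Their positive sums averaged 0.0436, 2.23 and 0.562 CPM against 64.6 ± 30.7, 77.8 ± 24.8 and 48 ± 28.8 in the negative sums (SD, n = 5 plates). With positive sums at or near 0 no fold is given. After thinning the wells with a count were 1, 3 and 0 of 18 positive and 25, 46 and 27 of 99 negative wells.

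The genes with the higher value on every plate were called by neither edgeR nor DESeq2. POLR2B, the second largest subunit of RNA polymerase II, had 298, 500.2, 98.5, 212 and 332 CPM in the positive sums and 227, 229, 19.5, 197.5 and 152.3 in the negative sums, which overlapped (log2 change 1.05 ± 0.50 SE, edgeR adjusted p = 0.625). BARD1, the partner of BRCA1, had 154.2 ± 92.6 against 62.5 ± 11.6 CPM, and NUP98, a nuclear pore protein, 227 ± 98.4 against 126.3 ± 46.6 (SD, n = 5 plates). RAB8B, a small GTPase of vesicle traffic, had 110.6 ± 32.6 against 51.5 ± 21.2 CPM, and CCP110, a centriole protein, 159.9 ± 49.4 against 85 ± 27.2. Their log2 changes were 1.17 ± 0.73, 0.81 ± 0.52, 1.22 ± 0.81 and 0.96 ± 0.64 (SE), with edgeR adjusted p from 0.631 to 0.642. A single well set much of 2 of these values: without 1 positive well of P2769 the change of POLR2B was 0.38, and without 1 positive well of P2771 that of CCP110 was 0.25. RAB8B was the one of the 5 whose positive sums (78.6 to 156.4 CPM) lay above all negative sums (22.3 to 76.7). The choice by smallest p and shared direction favours such a separation, and its share among all genes is not given here.

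**Figure D3:**
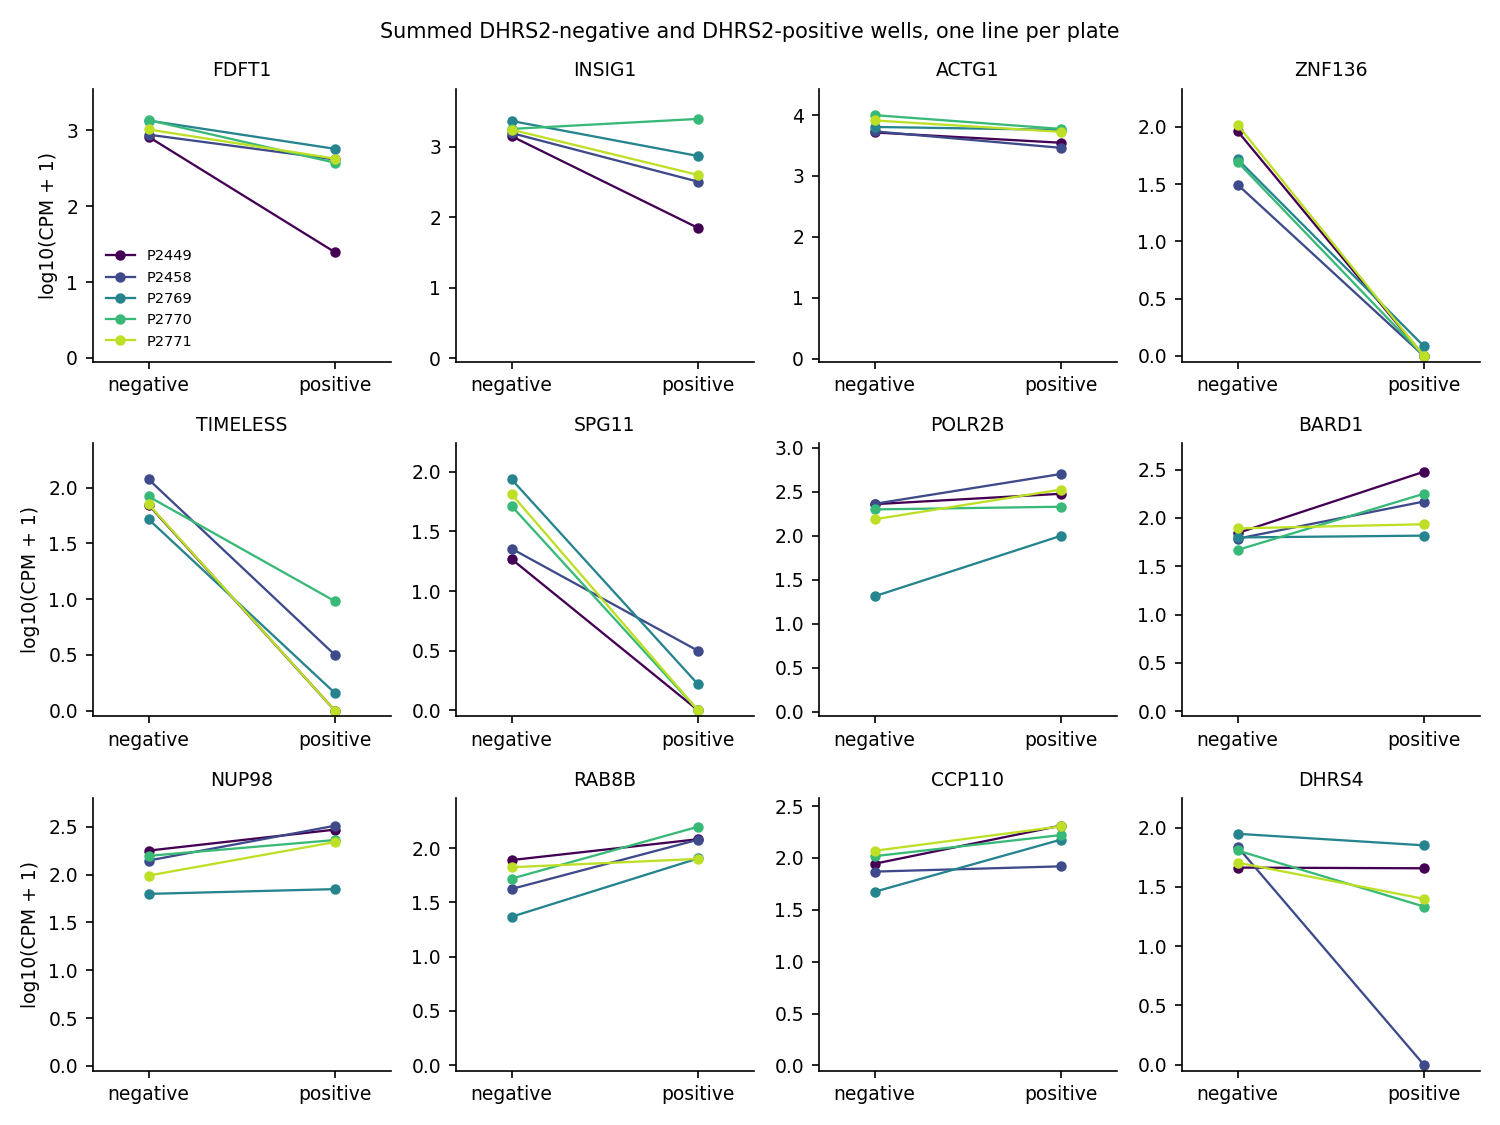
Levels of 12 genes in summed DHRS2-negative and DHRS2-positive wells, as log10(CPM + 1), with 1 line per plate. FDFT1 slopes down on all 5 lines and INSIG1 on 4 of them, ZNF136 and SPG11 end at or near 0, TIMELESS does so on 4 lines and ends at 8.57 CPM on P2770, and the 5 genes from POLR2B to CCP110 slope up on all lines.

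The relatives of DHRS2 were read in most wells of both groups. DHRS4, a carbonyl reductase, was read in 14 of 18 positive wells (77.8%) and 92 negative wells (78.6%), and DHRS4L2 in 15 (83.3%) and 96 (82.1%). After thinning these shares were 72.2% against 84.8% and 77.8% against 85.9%. Summed, DHRS4 had 44.5, 0, 70.0, 20.6 and 24.1 CPM in positive and 45.1, 67.98, 87.8, 63.2 and 49.8 in negative sums. It was lower on all 5 plates, nearly equal on P2449, with overlapping ranges (log2 change -1.41 ± 1.33 SE, edgeR adjusted p = 0.708), and DHRS4L2 changed by -1.27 ± 1.27 (adjusted p = 0.717).

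Within 500 kb of DHRS2, 22 other genes were measured. A larger share of positive than of negative wells had a count for 11 of them and a smaller share for 10. That split over all genes is not given here. The wells were not thinned for these shares, and 31 negative wells had fewer counts than any positive well. Of 17 tested, 1 had an unadjusted p under 0.05, against 6.73% of all genes, and none was called by edgeR or DESeq2. That gene, BCL2L2-PABPN1, overlaps BCL2L2 and PABPN1, so its counts are uncertain. It was read in 0 positive wells, which allows a share of up to 16.7%, and in 12 negative wells. PSME1 and PSME2, activator subunits of the proteasome at the far end of that window, were read in all 18 positive wells and in 92.3% and 88.9% of negative wells, also without thinning.

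Of 33 other short-chain dehydrogenases tested, 0 were called by edgeR or DESeq2 and 0 had an unadjusted p under 0.05. Their median log2 change was -0.89, against -1.55 for all genes. HSD17B10, a mitochondrial member, had 245 ± 181.6 CPM in positive and 366 ± 93.6 in negative sums, and HSD17B4, a peroxisomal one, 261 ± 215 and 221 ± 59.4 (SD, n = 5 plates). Of 25 NRF2 and carbonyl detoxification genes 0 were called by edgeR and 2, both lower, by DESeq2, which called 5.3% of all genes. In edgeR 2 had an unadjusted p under 0.05 (8%, against 6.73% of all genes). The median log2 change of that list was -0.83, which is 0.72 above that of all genes.

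Known targets of histone deacetylase inhibitors likewise gave 0 calls by edgeR and by DESeq2. Of 16 tested, 0 had an unadjusted p under 0.05 and the median log2 change was -0.87, against -1.55 for all genes. CDKN1A, the cell cycle inhibitor p21, was read in 7 of 18 positive wells (38.9%) and 46 negative wells (39.3%), against 5 of 94 with DMSO. Thinned, these shares were 33.3% and 41.4%, and in the second batch alone 43.8% and 46.2%. Of 11 histone deacetylases 2 had an unadjusted p under 0.05 (18.2%, against 6.73% of all genes), both lower and both under 20 CPM, and in the second batch alone 0 did. With equal weight per well 4 of the 11 did, against 905 of all 10923 genes (DHRS2 included). HDAC1 had 534 ± 344 CPM in positive and 420 ± 217 in negative sums (SD, n = 5 plates).

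The genes with the largest SAHA responses in these J-Lat A2 cells were chosen on the same wells and are therefore a description. Of 13 that rise with SAHA, 2 had a higher and 11 a lower mean level over the plates in positive wells (84.6% lower, against 70.4% of all genes tested). With equal weight per well the fitted change was above 0 for 8 and below 0 for 5 (38.5% below, against 45.7% of all genes). TUBB3, a neuronal beta-tubulin, was read in 9 of 18 positive wells (50%) and 67 negative wells (57.3%), against 2 of 94 with DMSO. CLU, a secreted chaperone, was read in 6 (33.3%) and 49 (41.9%), and CGREF1, a secreted growth regulator, in 10 (55.6%) and 50 (42.7%). Thinned, the 3 genes gave 50% against 60.6%, 33.3% against 43.4% and 55.6% against 47.5%. In the second batch alone they gave 50% against 67.3%, 25% against 51.9% and 62.5% against 55.8%. For each of these 3 genes the exact intervals of the groups overlapped.

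SCG2 and TUBB2A were singled out after their values were seen. SCG2, a secretory granule protein, was read in 5 of 18 positive wells (27.8%, exact interval 9.69 to 53.5) and 9 negative wells (7.69%, 3.58 to 14.1), and in 0 of 94 with DMSO. In the second batch the counts were 5 of 16 and 3 of 52, and after thinning 5 of 18 and 8 of 99. TUBB2A, a beta-tubulin, was read in 18 of 18 positive wells (exact interval 81.5 to 100) and 77 negative wells (65.8%, 56.5 to 74.3), after thinning in 18 of 18 and 70 of 99, and in 26 of 94 wells with DMSO. In the second batch it was read in 16 of 16 positive (79.4 to 100) and 40 of 52 negative wells (63.2 to 87.5), where the intervals overlapped. Its summed level was 139.5 ± 96.1 CPM in positive and 154.7 ± 27.8 in negative sums (SD, n = 5 plates, edgeR adjusted p = 0.785). Per well, its median was 156.4 CPM in positive and 79.9 in negative wells, and in the second batch alone 168.8 and 98.6. The exact intervals above count wells and are no test between plates.

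Of 15 tested genes with large SAHA falls, 4 had a higher and 11 a lower mean level over the plates in positive wells (73.3% lower, against 70.4% of all genes tested). IGLL1, a surrogate light chain gene, was read in 3 of 18 positive wells (16.7%) and 30 negative wells (25.6%) against 76 of 94 with DMSO, and MYC, a growth-promoting transcription factor, in 6 (33.3%) and 32 (27.4%) against 77. PTPRCAP, which binds the phosphatase CD45, was read in 8 positive (44.4%) and 30 negative wells (25.6%) against 93 with DMSO. Thinned, the shares of the 3 genes were 16.7% against 25.3%, 33.3% against 31.3% and 38.9% against 18.2%. In the second batch alone they were 18.8% against 34.6%, 37.5% against 25% and 37.5% against 34.6%. The shares of both groups were thus far from those of the vehicle wells for all 3 genes. CD1A, CD1D, SLA, DNTT and TRAF3IP2 were read in 0 of 18 positive wells, which allows up to 16.7%, and in 5 to 9 negative wells (4.27 to 7.69%).

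**Figure D4:**
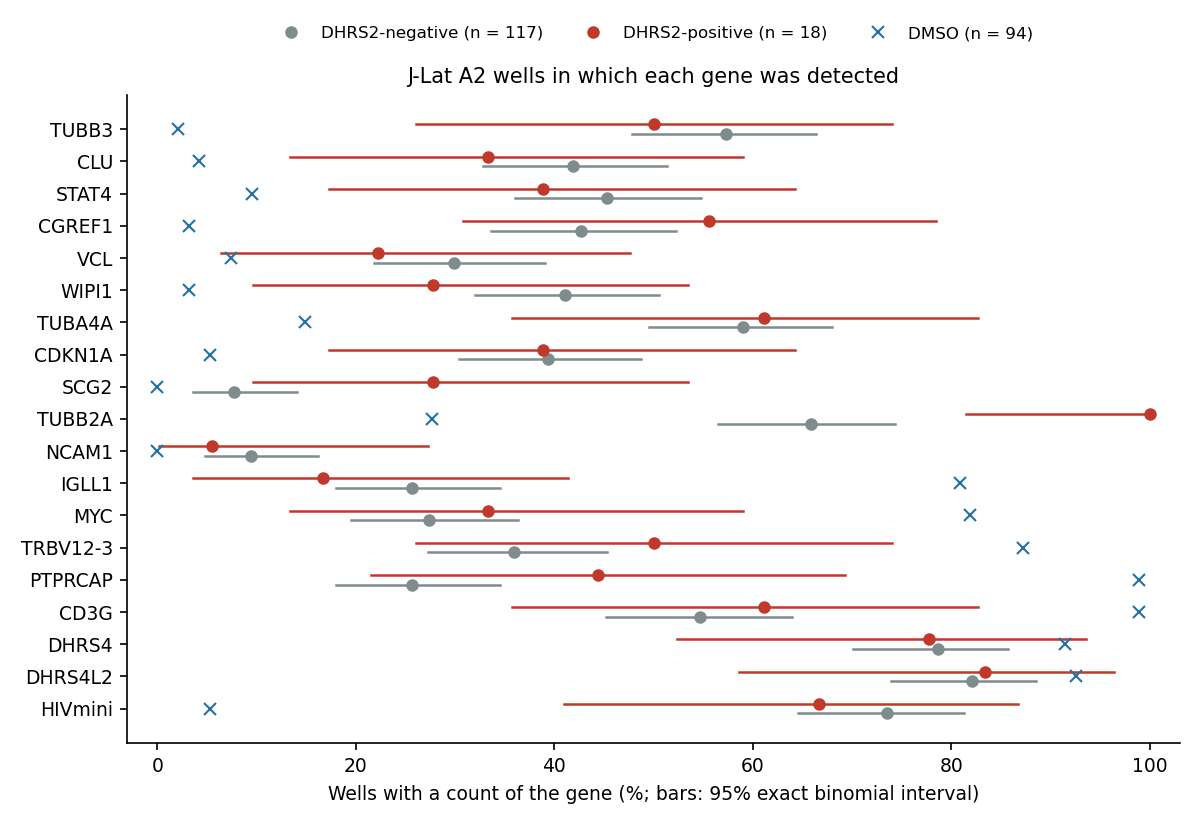
Share of wells with a count of each gene, in percent, for DHRS2-positive (red) and DHRS2-negative (grey) wells with their 95% exact binomial intervals, and for J-Lat A2 wells with DMSO (crosses). The intervals of positive and negative wells overlap for every gene drawn except TUBB2A, and for TUBB3, CDKN1A, MYC and PTPRCAP both groups lie on the same side of the DMSO value.

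Tubulins and glycolysis genes had no call by edgeR, and their direction depended on what they were read against. Of 11 tubulins 5 had an unadjusted p under 0.05, all lower (45.5%, against 6.73% of all genes). In the second batch alone, within the depth range of the positive wells, with depth as a covariate and with no plate block, 0 of the 11 did. With equal weight per well 4 of the 11 did, against 905 of all 10923 genes (DHRS2 included). The median log2 change of the tubulins was -0.70, which is 0.85 above the median of all genes, and 1 of the 11 lay below that median. TUBA1B had 4538 ± 1755 CPM in positive and 6445 ± 789 in negative sums, TUBB4B 2435 ± 1260 and 3322 ± 367, and TUBB 2193 ± 796 and 3226 ± 291 (SD, n = 5 plates). TUBA1A had 1934 ± 863 and 2548 ± 342, and TUBA1C 548 ± 574 and 875 ± 367. The log2 changes of TUBA1B and TUBB4B were -0.58 ± 0.20 and -0.59 ± 0.25 (SE, edgeR adjusted p = 0.625), and both turned to 1.04 and 0.60 with equal weight per well.

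Of 23 glycolysis genes 5 had an unadjusted p under 0.05, all lower (21.7%, against 6.73% of all genes). In the second batch alone 2 did, where 2.14% of all genes did. DESeq2 called 2 of the 23, both lower, against 5.3% of all genes. The median of the list was 0.05 above that of all genes. GAPDH had 8708 ± 2615 CPM in positive and 10890 ± 982 in negative sums (log2 change -0.33 ± 0.11 SE, edgeR adjusted p = 0.625), and 0.37 with equal weight per well. LDHA and LDHB, the subunits of lactate dehydrogenase, had 1617 ± 416 against 2513 ± 460.1 and 1499 ± 571 against 2154 ± 342 CPM, and PGAM1 had 778 ± 194.5 against 1152 ± 103.3 (SD, n = 5 plates). The fifth, PFKFB4, was under 20 CPM. The positive sums of P2449 and P2458 were the lowest for GAPDH at 6258 and 5484 CPM, while those of the second batch ran from 10378 to 10973.

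Of 24 cholesterol synthesis genes 3 had an unadjusted p under 0.05 (12.5%, against 6.73% of all genes): FDFT1, INSIG1 and, under 20 CPM, SREBF1. None was called by edgeR, and DESeq2 called 2, both lower, against 5.3% of all genes. The median of that list was -1.36. Relative to the median of all genes it was 0.19, and in the second batch alone -0.26. IDI1, which makes an isoprenoid precursor of sterols, had 874 ± 725.5 CPM in positive and 1694 ± 838 in negative sums (SD, n = 5 plates).

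Proliferation and chaperone genes gave no call by edgeR with all plates. Of 55 G2 and M phase genes 3 had an unadjusted p under 0.05 (5.45%), of 45 S phase genes 1 (2.22%), and of 22 p53 targets and CDK inhibitors 3 (13.6%), all lower. Over all genes that share was 6.73%, and 731 of 735 such genes were lower. Minus the median of all genes, the median log2 changes of the 3 lists were 0.96, 0.66 and -0.24. DESeq2 called 1, 2 and 3 genes of these lists, all lower, among them POLA1, the catalytic subunit of DNA polymerase alpha (adjusted p = 0.0109). Over all genes DESeq2 called 5.3%. CDK1, the kinase that drives entry into mitosis, had 483 ± 435 CPM in positive and 1043 ± 440.1 in negative sums (SD, n = 5 plates, edgeR adjusted p = 0.625). With the batches as units it was 1 of 2 genes called, beside the nuclear import factor KPNA2. Of 15 heat shock chaperones 1 had an unadjusted p under 0.05 (6.67%), and DESeq2 called 0. HSPA8, the constitutive HSC70, had 586, 9686, 4949, 8985 and 8387 CPM in positive and 3918, 2847, 3053, 6970 and 4457 in negative sums, higher on 4 plates and lower on P2449 (edgeR adjusted p = 0.759). Of 79 cytoplasmic ribosomal protein genes 1 had an unadjusted p under 0.05 (1.27%). The median log2 change of that list was -0.27, which is 1.28 above that of all genes.

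Immune gene lists gave no call by edgeR. Of 32 T cell receptor and T lineage genes 3 had an unadjusted p under 0.05 (9.38%), of 18 interferon-stimulated genes 3 (16.7%), of 18 HIV restriction factors 0, and of 16 activation and immediate early genes 1 (6.25%), against 6.73% of all genes. DESeq2 called 4, 3, 0 and 1 of these, all lower, against 5.3% of all genes. TRBC1, the constant region of the T cell receptor beta chain, had 273 ± 229 CPM in positive and 348.5 ± 116.99 in negative sums, against 2115 ± 532 with DMSO (SD, n = 5 plates). The interferon-stimulated list had a median of -2.29 relative to all genes in the second batch and of -0.23 with equal weight per well.

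The remaining lists also gave no call by edgeR. Against 6.73% of all genes, an unadjusted p under 0.05 was found for 3 of 23 amino acid and unfolded protein stress genes (13.0%), 2 of 31 ribosome biogenesis genes (6.45%), 2 of 13 mitochondrially encoded genes (15.4%) and 2 of 21 neuronal genes (9.52%), all lower. It was found for 1 of 12 V(D)J recombination and lymphoid precursor genes (8.33%), 1 of 14 T cell leukaemia transcription factors (7.14%), 1 of 24 elongation genes (4.17%) and 0 of 13 BCL2 family genes. DESeq2 called 3 amino acid and unfolded protein stress genes and 1 each of the ribosome biogenesis, neuronal and elongation genes, all lower, and 0 of the other 4 lists. Over all genes it called 5.3%. Minus the median of all genes, the stress, ribosome biogenesis, mitochondrial and neuronal lists had median log2 changes of -0.64, 0.64, 1.23 and -1.23. MT-CO3 and MT-ATP6, the mitochondrial pair, had 3448 ± 1363 against 4476 ± 1110.4 CPM and 2152 ± 875 against 3097 ± 704.8 CPM (SD, n = 5 plates).

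**Figure D5:**
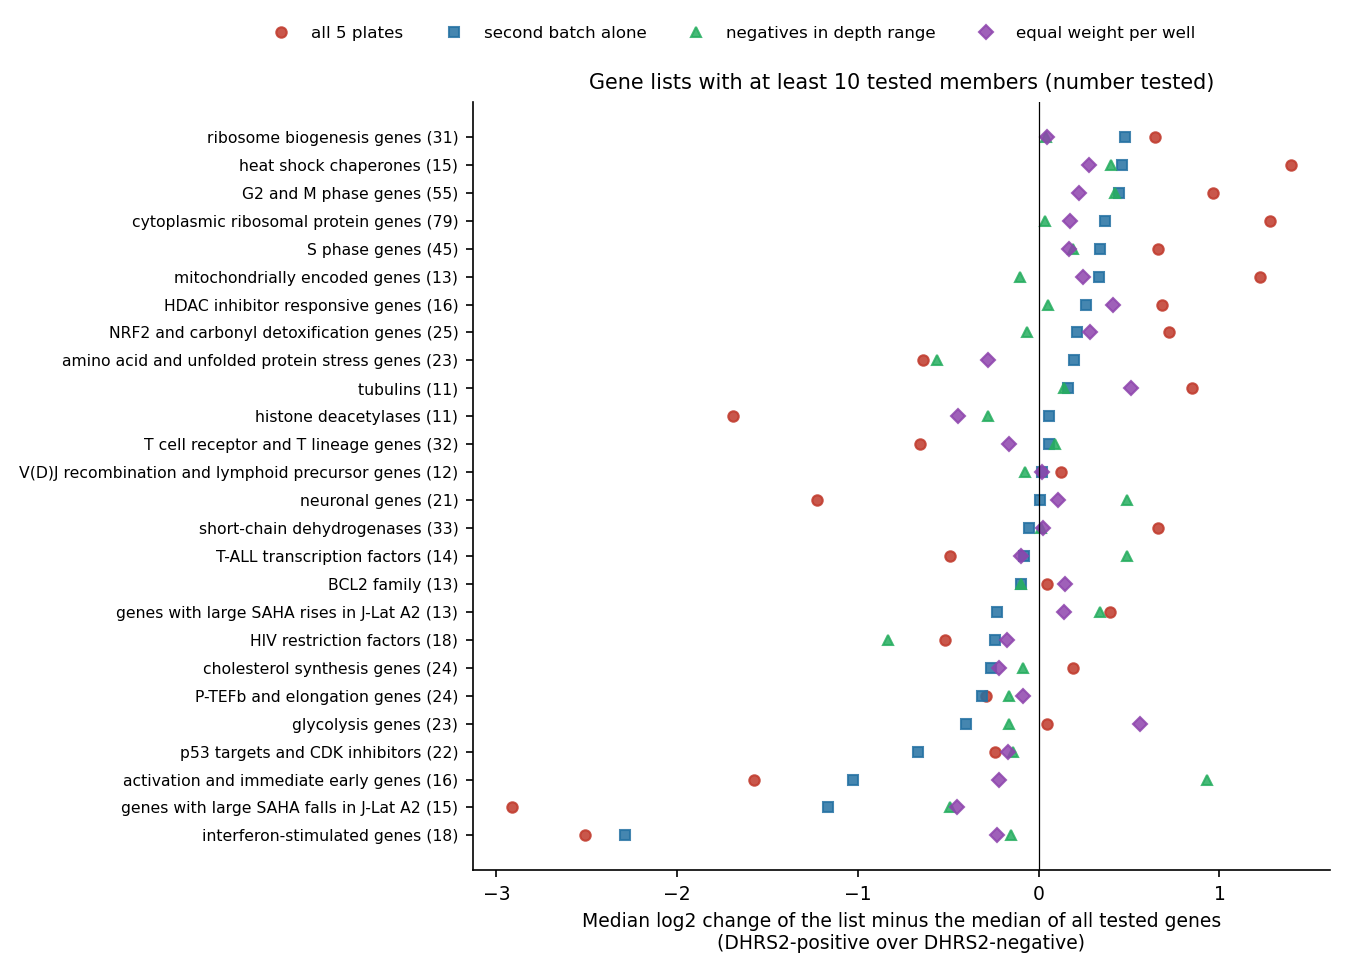
Median log2 change (DHRS2-positive over DHRS2-negative) of each gene list minus the median of all tested genes, for lists with at least 10 tested members, in 4 analyses. The points of a list spread widely between analyses, and several lists, such as short-chain dehydrogenases, change sign among them.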

How the data were processed

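Values in the deposited table are expected counts, estimated by the authors for each gene in each well from reads without molecular identifiers (unit read from the values: 13.7% of values above 0 were not whole). Salmon 1.5.1, alevin and GRCh38.p13 are listed in the submitters' processing notes, with no role. Symbols were found for 19718 of 20302 features. Kept wells had 19756 to 984418 counts.

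Expected counts were summed per plate and group, rounded, and compared with edgeR 4.0.16 in R 4.3.3 (TMM, filterByExpr, quasi-likelihood F test, two-sided, plate as block, Benjamini-Hochberg over all tested genes, called at adjusted p under 0.05; 4 residual and 8.83 prior degrees of freedom). Printed levels are TMM-normalised CPM. The SE beside an edgeR log2 change was derived as the absolute log2 change divided by the square root of F, since the test gives none. Positive and negative sums of a plate were paired by plate because they share it. Well measures were compared by the exact sign-flip permutation test over plates (scipy 1.17.1). Equal weight per well used limma 3.58.1 on log2(CPM + 1) averaged over the wells of each plate and group. Wells weighed equally only within a plate and group, and every plate weighed equally. DESeq2 1.42.0 was the other count test. The fit was also run on simulated counts, with only large changes planted, in genes of high level and with no plate effect. That run does not show what the fit would find for changes of the size seen here.

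Named genes were HIVmini, DHRS4, DHRS4L2, the 5 smallest p in each direction (at least 20 CPM, same direction on all plates), up to 2 of highest level per list, and the SAHA lists. List members at an unadjusted p under 0.05 were added after the values were seen. The wells, the 31 lists and the tests were chosen with earlier results of these data known.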

Additional observations from a re-analysis of the deposited data

Results flagged for a closer look

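Among 45 sets of 5 plate values, 3 had a plate that stood apart from the other 4 by Dixon's test, and chance alone flags about 5% of such sets. ZNF136 was at 0.218 CPM in the positive sum of P2769 and at 0 in the other positive sums. TIMELESS was at 8.57 CPM in the positive sum of P2770 and at 2.16 CPM or less in the others. INSIG1 was at 2462 CPM in the positive sum of P2770, against 734 CPM or less in the others.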

How the results depend on the processing

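Beside the 0 genes called with all plates, DESeq2 called 579, thinning to 100000 counts 1 (INSIG1), and batches as units 2 (CDK1 and KPNA2). The fit with no replicate block, the fits without a filter on low counts, with depth as a covariate, with negative wells in the depth range of the positive wells (3 plates, 27 negative and 16 positive wells), with the stricter well filter and with a threshold of 10 counts each called 0, as did equal weight per well and, added after seeing the data, the second batch alone. Leaving out each plate or positive well gave 0 to 0 calls in 23 fits. Leaving out a plate moved the number of genes whose difference depended on the batch from 0 to between 0 and 965. The log2 change of HIVmini ran from -1.57 to -0.29 with a plate or well left out and was 0.55 in the depth range. The difference in its share of wells ran from -20.0 to 5.31 percentage points. The difference in well total ran from -43601 to 7550 and was 45706 with the mean in place of the median, and that in genes read ran from -174.5 to 213, was -109.5 after thinning and -116.2 with the stricter well filter. Without P2458 and P2770 it was -57.4 and -5.38. The share of DHRS2-positive wells ran from 8.85 to 17.5% and was 23.5% in the second batch. Of 17 genes under 11 settings, 5 reversed under at least 1: with equal weight per well ACTG1 (0.61), TUBB4B (0.60), TUBA1B (1.04) and GAPDH (0.37), and in the depth range TUBB4B (0.39), TUBA1B (0.11) and HIVmini. The cause was not tested. The positive sums of 1 well limit what the first batch can show.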
